A study of Mus musculus with 6 samples.

Results

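The genes described here encode the machinery that copies chromosomal DNA, together with E2f1, E2f2 and E2f3, the transcription factors that switch much of this machinery on. Their messenger levels were measured in Mvt-1, a line of mammary tumour cells from mice with Myc and Vegf transgenes. They were compared between 3 samples treated with 10 nM insulin for 90 min and 3 samples treated with vehicle, all from cells that had been held without serum for 16 h. The study concerned the insulin receptor in breast cancer, and RNA from each sample was read on a single-colour Illumina expression array. The list held 46 genes chosen by symbol, all 46 had at least 1 of its 94 probes on the array, and 44 had a probe with a detection p under 0.05 on at least 3 of the 6 arrays. These 44 were tested among 9478 genes in all.

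In a cell that leaves rest, cyclin-dependent kinases release E2F factors from the retinoblastoma protein, and E2F then raises the transcription of genes for origin licensing, DNA synthesis and nucleotide supply. Before S phase the origin recognition complex, Cdc6 and Cdt1 load the MCM helicase onto DNA. Cdc45, the GINS complex and Mcm10 then activate the helicase, and the polymerases, the sliding clamp and the ligase follow. The E2F-driven wave of transcription comes late in G1 in cells that re-enter the cycle, and insulin is known as a mitogen for mammary tumour cells.

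After 90 min of insulin, 0 of the 44 genes passed the threshold (limma, Benjamini-Hochberg adjusted p under 0.05 over all genes), either higher or lower. The lowest adjusted p among them was 0.334, for Orc4, a subunit of the origin recognition complex. By the same test, 44 of all 9478 genes, or 0.464%, were called. At an unadjusted p under 0.05 there was 1 replication gene, or 2.27% of those tested, beside 11% of all genes. The replication genes stood on both sides of 0, with 23 positive and 21 negative changes, and 52.3% positive compared with 46% of all genes. Their median log2 change was 0.0051, beside -0.015 over all genes, and their changes ran from -0.24 to 0.34.

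The standard errors of the log2 changes ran from 0.12 to 0.18, with a median of 0.13 that was also the median over all genes. For 42 of the 44 genes, or 95.5%, the 95% interval of the change lay wholly within a 1.5-fold difference in either direction, which is 0.58 on the log2 scale, and this held for 87.9% of all genes. The exceptions were Orc4, with an interval from 0.07 to 0.60, and E2f2, with one from -0.16 to 0.59. The lowest bound of any replication gene was -0.53, for Orc2. An offset of 16 was added to every intensity before the log2 step. It draws the changes of dim genes, such as Orc2 and Orc4, toward 0. The 1.5-fold bound thus applies to intensities with the offset included, and changes of dim genes without it can be larger.

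**Figure D1:**
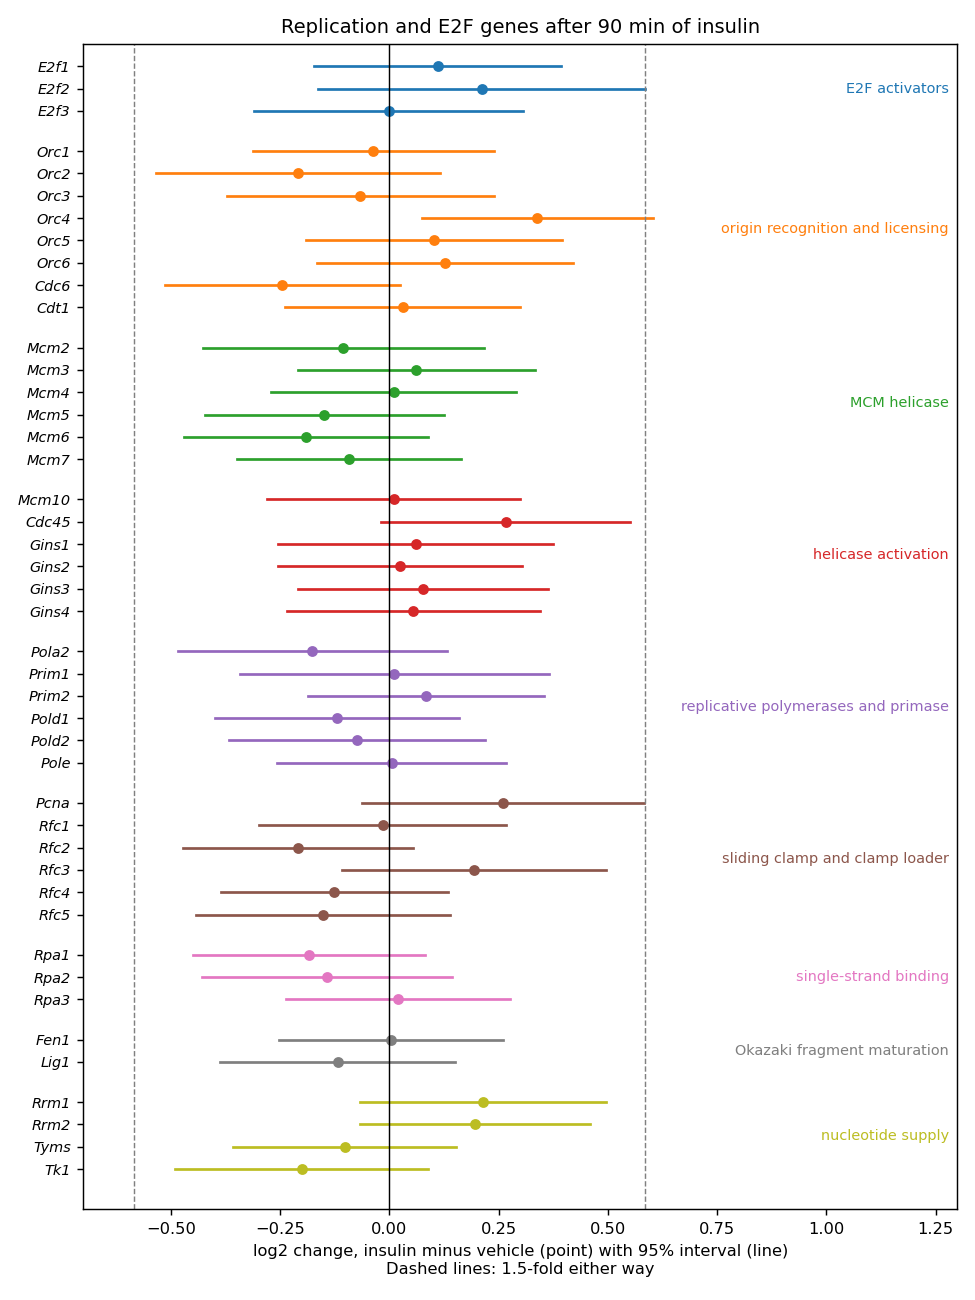
Log2 change of each of the 44 tested genes (point, insulin minus vehicle) with its 95% interval (line), grouped and coloured by role, and 1.5-fold in either direction as dashed lines. The points lie between -0.24 and 0.34, and only the intervals of Orc4 and E2f2 reach past a dashed line.

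In 7 of the 44 genes, or 15.9%, the insulin arrays did not overlap the vehicle arrays, the same share as the 15.9% found over all genes. These were Orc4, Cdc45 and Rrm2 on the higher side, where 6.59% of all genes lay, and Cdc6, Mcm5, Rfc2 and Tyms on the lower side, where 9.34% of all genes lay. Among the insulin arrays 18, 20 and 18 of the 44 genes were above their own mean over the 6 arrays in replicates 1, 2 and 3. Among the vehicle arrays it was 30, 17 and 26. Vehicle replicate 1 was thus the array on which most of these genes were high, with a median deviation of 0.056 on the log2 scale against 0.021 over all genes on that array, and vehicle replicate 2 was the lowest at -0.057.

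**Figure D2:**
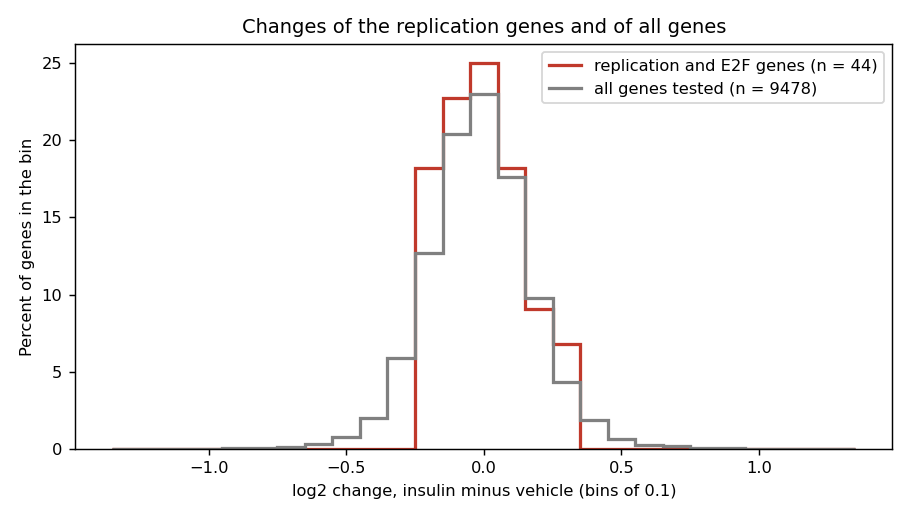
Percent of the 44 replication and E2F genes (red) and of all 9478 genes tested (grey) in bins of 0.1 of the log2 change, insulin minus vehicle. The red outline is centred near 0 like the grey one and ends at -0.24 and 0.34. All genes reach -1.29 and 0.99, but a range widens with the number of genes. The SD of the changes is 0.15 for the red outline and 0.19 for the grey one.

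Insulin did change other genes on the same arrays. Of 7 targets of FOXO factors, which insulin signalling inactivates, 4 fell past the threshold, and these were Fbxo32, Ccng2, Txnip and Irs2. Over all 9478 genes, 32, or 0.338%, were called lower. Fbxo32, a ubiquitin ligase subunit, had a change of -1.29 ± 0.15 on the log2 scale (standard error, n = 3 per group, limma adjusted p = 0.00109). The 7 were taken up because earlier results of these data were known, so they only show that the arrays registered a response.

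The arrays were alike in quality, with 17617 to 18232 of 45281 probes detected and correlations of 0.988 to 0.992 between arrays. The number of called genes among all 9478 depended on single arrays, from 2 without vehicle replicate 2 to 67 without insulin replicate 3. In each of these fits 0 of the 44 replication genes were called, which is near such small shares of all genes. Epithelial markers were partly detected, 4 of 10 (Cdh1, Krt8, Krt18 and Cldn3), whereas Epcam, a defining one, was not. Those 4 summed to a normalized intensity of 2233 to 2428 on the insulin arrays and 2125 to 2858 on the vehicle arrays. Of 7 fibroblast markers 4 were detected (Col3a1, Pdgfra, Pdgfrb and Dcn), with a summed normalized intensity of 789.3 to 819.6 on the insulin arrays and 787.1 to 979.9 on the vehicle arrays. For Pdgfra the difference was -0.43 ± 0.16 on the log2 scale (limma adjusted p = 0.359), with an unadjusted p under 0.05. Of 6 basal mammary markers 3 were detected (Krt14, Krt17 and Acta2), and their summed intensity did not overlap between groups, at 325.0 to 394.4 on the insulin arrays and 394.7 to 422.5 on the vehicle arrays. Taken singly, 1 of these 3 had a positive change, of 0.11, and 2 had negative ones, down to -0.21. Only 1 of the 3 did not overlap between groups, and 15.9% of all genes did not. Krt5 and Trp63, defining basal markers, were not detected on 3 arrays. The part of these markers in the results was not tested. None of the 5 leukocyte, 5 endothelial or 5 adipocyte markers named on the array was detected on 3 arrays.

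The E2F activators come first in this order of events. E2f1, which drives S phase entry, had log2 intensities of 9.39, 9.63 and 9.28 on the insulin arrays and 9.40, 9.20 and 9.39 on the vehicle arrays. The groups overlapped, with only insulin replicate 2 above every vehicle array, and the log2 change was 0.11 ± 0.13 (limma adjusted p = 0.821). The E2f1 change was 0.012 without insulin replicate 2, 0.046 without vehicle replicate 2 and 0.19 without insulin replicate 3. E2f2, a close relative that acts in the same way, stood at 7.60, 7.57 and 6.95 with insulin and at 7.47, 7.05 and 6.96 with vehicle. It varied most of the 3, with an SD of 0.37 over the insulin arrays and 0.27 over the vehicle arrays, and its change was 0.21 ± 0.18 (adjusted p = 0.717). That change rested on single arrays, at 0.43 without insulin replicate 3 and 0.37 without vehicle replicate 1, and at 0.097, 0.11 and 0.11 without insulin replicate 1, insulin replicate 2 and vehicle replicate 3. A second detected E2f2 probe had a change of 0.61 ± 0.25, which did not pass in a fit over all 17482 detected probes (limma adjusted p = 0.459). E2f3 read 7.16, 6.91 and 6.70 with insulin and 6.73, 7.09 and 6.96 with vehicle, a change of -0.0011 ± 0.15 whose sign turned without background correction. A second detected E2f3 probe gave 0.20 ± 0.15, so no direction can be given for E2f3.

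E2F proteins bind DNA at a short GC-rich core next to a run of T, and the promoters of this gene list were searched for it. The search covered the 8 letters TTTCCCGC, TTTCGCGC, TTTGCCGC and TTTGGCGC on both strands, in RefSeq windows (build GRCm38.p6) that run from 250 bases before to 50 bases after an annotated start. Overlapping matches were joined into 1 stretch. Of the 46 genes, 39 matched the promoter table, with 49 windows, and 16 of those windows, or 32.7%, held a match. The share was 2.26% of all 32851 windows and 4.05% of the 9891 windows of genes tested on the array. Since several of these genes are known E2F targets, a high share is background knowledge seen again, and a match is not a measured binding site. Of the 5 windows of E2f1, E2f2 and E2f3, 2 held a match, and the E2f1 window held none. An E2f3 window (chr13:29986014-29986313, minus strand) held 1 match that begins 11 bases before the start, and another E2f3 window held none. The match is given here in capitals to show where this window carries the core.

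E2f3: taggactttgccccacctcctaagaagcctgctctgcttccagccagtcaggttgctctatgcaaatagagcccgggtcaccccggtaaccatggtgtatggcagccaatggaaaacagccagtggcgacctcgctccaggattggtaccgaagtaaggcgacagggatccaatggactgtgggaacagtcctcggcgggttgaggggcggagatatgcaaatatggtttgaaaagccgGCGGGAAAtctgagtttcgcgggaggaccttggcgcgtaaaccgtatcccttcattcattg

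**Figure D3:**
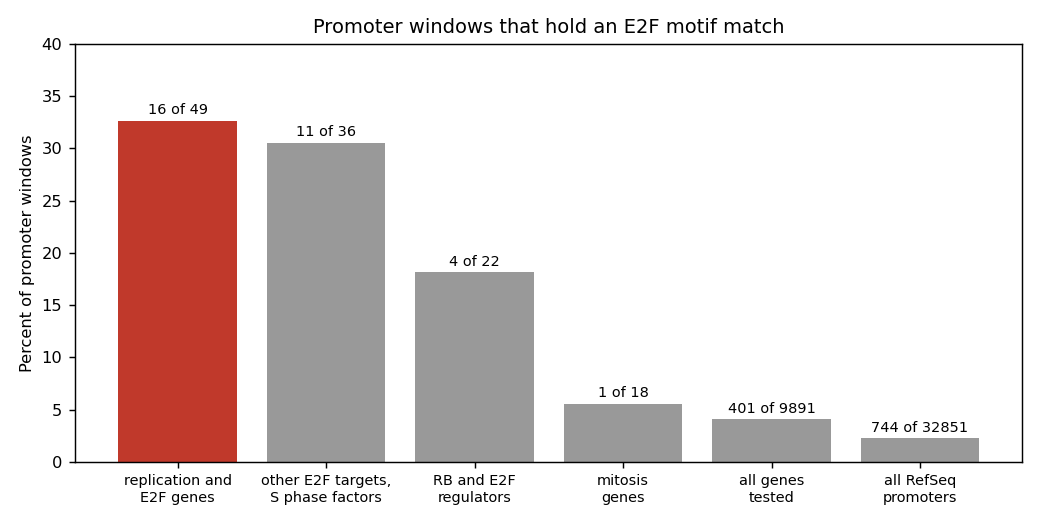
Percent of RefSeq promoter windows with at least 1 match to the E2F motif (bars, counts above them) for the replication and E2F genes, for 3 other gene lists, for the genes tested and for all windows. The replication and E2F genes stand at 32.7%, and all windows at 2.26%.

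Licensing genes showed no shared direction, with 4 positive and 4 negative changes among 8 and a median of -0.0027. Orc4 was detected on all arrays at log2 intensities of 5.69, 5.82 and 5.91 with insulin and 5.45, 5.56 and 5.40 with vehicle. Every insulin array was above every vehicle array, and the change was 0.34 ± 0.13, which is 1.26-fold with the offset included (limma adjusted p = 0.334). It was the only gene of the list with an unadjusted p under 0.05. The other 2 detected Orc4 probes gave 0.19 and 0.20, so the 3 probes shared a sign. With no background correction the Orc4 change was 0.16. Orc1, the large subunit that marks origins in G1, had a change of -0.036 ± 0.13, Orc3 by -0.066 ± 0.14, Orc5 by 0.10 ± 0.14 and Orc6 by 0.13 ± 0.14.

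Cdc6, the ATPase that helps load MCM, stood at 7.62, 7.70 and 7.59 with insulin and at 8.06, 7.78 and 7.80 with vehicle. The insulin arrays lay below the vehicle arrays, of which replicate 1 was the highest, and the change was -0.24 ± 0.13 (limma adjusted p = 0.511), or -0.16 without vehicle replicate 1. Cdt1, the partner of Cdc6 in loading, read 9.28, 9.45 and 9.40 with insulin and 9.35, 9.48 and 9.21 with vehicle, a change of 0.031 ± 0.13 (adjusted p = 0.964) that turned negative with median scaling. Orc2 was the only gene near the edge of the detection filter, seen on 1 insulin and 2 vehicle arrays, with raw signals of 76.6 to 88.4. Its change of -0.21 ± 0.15 came from readings of 4.35, 4.41 and 4.63 with insulin and 5.00, 4.61 and 4.40 with vehicle, which overlapped. Both loading factors carried the E2F core in their windows, in Cdc6 at 138 bases before the start (chr11:98907901-98908200, plus strand) and in Cdt1 at base 33 after it (chr8:122567765-122568064, plus strand), and the windows are shown because the 2 genes hold different forms of the motif at different places.

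Cdc6: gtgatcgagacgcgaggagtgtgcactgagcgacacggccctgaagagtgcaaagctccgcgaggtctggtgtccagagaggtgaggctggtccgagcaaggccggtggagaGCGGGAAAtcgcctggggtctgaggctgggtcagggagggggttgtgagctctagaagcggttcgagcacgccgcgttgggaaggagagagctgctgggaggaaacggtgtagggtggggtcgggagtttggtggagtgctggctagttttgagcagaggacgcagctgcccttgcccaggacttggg
Cdt1: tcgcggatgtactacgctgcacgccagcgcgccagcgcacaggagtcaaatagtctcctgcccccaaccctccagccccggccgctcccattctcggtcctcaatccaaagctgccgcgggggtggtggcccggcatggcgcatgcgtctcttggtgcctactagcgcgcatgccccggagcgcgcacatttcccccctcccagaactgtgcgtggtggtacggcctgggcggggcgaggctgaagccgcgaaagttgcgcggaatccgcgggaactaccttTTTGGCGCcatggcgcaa

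The MCM genes, which encode the 6 subunits of the helicase ring, had changes from -0.19 to 0.062 with a median of -0.099, and 4 of 6 were negative. Mcm6 was the farthest from 0, with 9.94, 10.25 and 10.11 on the insulin arrays and 10.37, 10.14 and 10.35 on the vehicle arrays. These overlapped, since vehicle replicate 2 lay below insulin replicate 2, and the change was -0.19 ± 0.13 (limma adjusted p = 0.650), or -0.11 without insulin replicate 1. The 4 detected Mcm6 probes did not share a sign, at -0.20, -0.19, -0.012 and 0.23. Mcm5 read 10.08, 10.08 and 10.05 with insulin and 10.42, 10.13 and 10.10 with vehicle. Its groups did not overlap, although 2 of the vehicle arrays lay just above the insulin arrays, and the change was -0.15 ± 0.13 (adjusted p = 0.730). Mcm2 (-0.11 ± 0.15), Mcm3 (0.062 ± 0.13), Mcm4 (0.0099 ± 0.13) and Mcm7 (-0.092 ± 0.12) all overlapped between groups. The second detected Mcm7 probe gave 0.023 ± 0.27.

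Of the 5 MCM genes with a promoter window, 4 held the E2F core, a larger share than in any other role, although the role with the fewest genes had only 2. The Mcm6 window (chr1:128359656-128359955, minus strand) held 2 stretches, a 12-letter one where matches on both strands overlap, beginning 110 bases before the start, and a second one 47 bases before it. The Mcm5 window (chr8:75109259-75109558, plus strand) held 1 stretch of 12 letters beginning 153 bases before the start. These 2 windows are printed because they hold the longest stretches of the list, in capitals.

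Mcm6: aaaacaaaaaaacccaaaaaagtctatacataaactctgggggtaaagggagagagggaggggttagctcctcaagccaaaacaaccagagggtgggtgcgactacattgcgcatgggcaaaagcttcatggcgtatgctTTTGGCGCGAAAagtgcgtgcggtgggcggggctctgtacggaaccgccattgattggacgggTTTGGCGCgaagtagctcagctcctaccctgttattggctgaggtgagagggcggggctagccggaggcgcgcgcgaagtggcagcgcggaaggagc
Mcm5: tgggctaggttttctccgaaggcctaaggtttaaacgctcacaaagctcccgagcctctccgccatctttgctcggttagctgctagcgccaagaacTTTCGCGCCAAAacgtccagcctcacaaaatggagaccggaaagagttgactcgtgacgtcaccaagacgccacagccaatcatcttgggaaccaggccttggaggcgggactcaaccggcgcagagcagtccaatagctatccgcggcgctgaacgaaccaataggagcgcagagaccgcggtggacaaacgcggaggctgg

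All 6 genes of helicase activation had positive changes, from 0.010 to 0.27 with a median of 0.058, but 0 passed the threshold. The shared sign rested on single arrays, with 2 positive and 4 negative changes and a median of -0.023 without vehicle replicate 2. It was 4 and 2 without insulin replicate 1 or 2, and 5 and 1 without insulin replicate 3, without vehicle replicate 3, with median scaling or with the mean of probes. Cdc45, which joins the MCM ring and GINS into the working helicase, stood at 8.06, 8.25 and 8.08 with insulin and at 8.04, 7.89 and 7.65 with vehicle. The insulin arrays lay above the vehicle arrays, narrowly so for vehicle replicate 1, and the change was 0.27 ± 0.13 (limma adjusted p = 0.488), or 0.16 without vehicle replicate 3. The GINS subunits Gins1 (0.060 ± 0.15), Gins2 (0.024 ± 0.13), Gins3 (0.078 ± 0.14) and Gins4 (0.055 ± 0.14), and the activation factor Mcm10 (0.010 ± 0.14), all lay within 1 standard error of 0 and overlapped between groups. The other 2 detected Gins2 probes were negative, at -0.023 ± 0.16 and -0.20 ± 0.14.

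**Figure D4:**
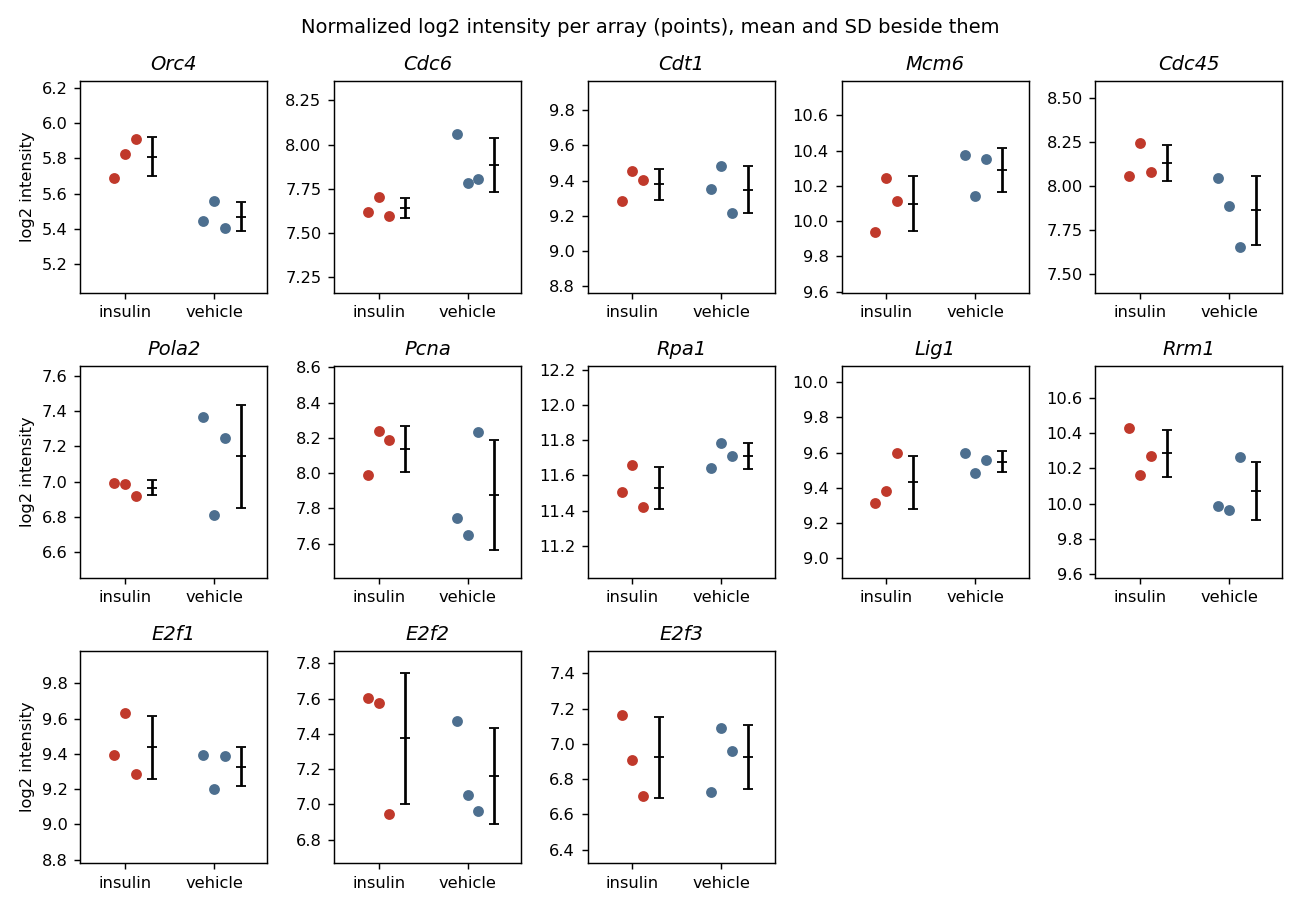
Normalized log2 intensity of 13 genes on each array, insulin (red) left of vehicle (blue), replicates 1 to 3 from left to right, with the mean and SD (n = 3) beside the points and an axis span of 1.2 in each panel. The groups separate in Orc4, Cdc6 and Cdc45 and overlap in the other 10.

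Polymerase and primase genes gave 6 tested members, with 3 positive and 3 negative changes. Pola1 and Pole2, which encode the catalytic subunit of polymerase alpha and the second subunit of polymerase epsilon, were not detected on any array (lowest detection p 0.143 and 0.165) and were not tested. Pola2, the second subunit of polymerase alpha, read 6.99, 6.99 and 6.92 with insulin and 7.37, 6.81 and 7.25 with vehicle. The vehicle arrays spread to both sides of the insulin arrays, and the change was -0.18 ± 0.15 (limma adjusted p = 0.710). It was -0.34 without vehicle replicate 2 and -0.064 without vehicle replicate 1. Prim1 and Prim2, the primase subunits, had a change of 0.011 ± 0.17 and 0.084 ± 0.13. The second detected Prim2 probe had the opposite sign, at -0.25 ± 0.13. Pold1 and Pold2, of the lagging-strand polymerase delta, had a change of -0.12 ± 0.13 and -0.074 ± 0.14, and Pole, the catalytic subunit of the leading-strand polymerase, by 0.0058 ± 0.12.

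Pcna, the sliding clamp that tethers polymerases to DNA, had 7.99, 8.24 and 8.19 on the insulin arrays and 7.75, 7.65 and 8.23 on the vehicle arrays. Vehicle replicate 3 lay among the insulin arrays and the other vehicle arrays lay below them. The change was 0.26 ± 0.15 (limma adjusted p = 0.574), and it was 0.44 without vehicle replicate 3 and 0.15 without vehicle replicate 2. The subunits of the clamp loader, which opens the clamp around DNA, had a change of -0.015 ± 0.13 (Rfc1), -0.21 ± 0.12 (Rfc2), 0.19 ± 0.14 (Rfc3), -0.13 ± 0.12 (Rfc4) and -0.15 ± 0.14 (Rfc5). Of these Rfc2 had groups that did not overlap, at 9.81, 9.76 and 9.80 with insulin and 10.14, 9.94 and 9.91 with vehicle. Of the 4 detected Rfc2 probes 3 were negative and 1 was positive, at 0.033. The second detected probe gave 0.15 for Rfc4 and -0.086 for Rfc5.

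Rpa1, the large subunit of the protein that coats single-stranded DNA, read 11.51, 11.66 and 11.42 with insulin and 11.64, 11.79 and 11.71 with vehicle. The ranges met only at insulin replicate 2 and vehicle replicate 1, and the change was -0.18 ± 0.13 (limma adjusted p = 0.645). Rpa2 had a change of -0.14 ± 0.14, with its 3 detected probes between -0.16 and -0.12, and Rpa3 by 0.019 ± 0.12. Lig1, the ligase that seals Okazaki fragments, stood at 9.31, 9.38 and 9.60 with insulin and at 9.60, 9.49 and 9.56 with vehicle, overlapping at insulin replicate 3. Its change was -0.12 ± 0.13 (adjusted p = 0.799), or -0.20 without insulin replicate 3 and -0.059 without insulin replicate 1. The other 3 detected Lig1 probes had positive changes, of 0.047 to 0.21. Fen1, the flap nuclease that acts before ligation, had a change of 0.0044 ± 0.12.

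Nucleotide supply genes had 2 positive and 2 negative changes. Rrm1, the large subunit of ribonucleotide reductase, read 10.43, 10.16 and 10.27 with insulin and 9.99, 9.97 and 10.26 with vehicle, and only vehicle replicate 3 reached the insulin range. The change was 0.21 ± 0.13 (limma adjusted p = 0.605), while a second detected Rrm1 probe gave -0.031. Rrm2, the small subunit whose level follows S phase, stood at 8.17, 8.10 and 8.14 with insulin and at 7.82, 7.93 and 8.07 with vehicle, groups that did not overlap, with a change of 0.20 ± 0.12 (adjusted p = 0.613). Its second detected probe gave -0.0022. Tyms, thymidylate synthase, had readings of 9.62, 9.61 and 9.61 with insulin and 9.79, 9.71 and 9.65 with vehicle, a change of -0.10 ± 0.12, and its 5 detected probes ran from -0.21 to 0.28. Tk1, thymidine kinase, had a change of -0.20 ± 0.14, and its second detected probe by -0.22.

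Of the 18 genes with more than 1 detected probe, 7 had probes that all shared a sign and 11 had probes of both signs. Orc4, Orc5, Mcm10 and E2f2 were the positive ones, and Rfc5, Rpa2 and Tk1 the negative ones. Over all 74 detected probes of the list, 0 passed the threshold (limma adjusted p, over 17482 probes) and 3 had an unadjusted p under 0.05. The 11% of all genes in the gene test counts 1 probe per gene and is not a like background for that count of probes. The share over all detected probes is not given here.

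**Figure D5:**
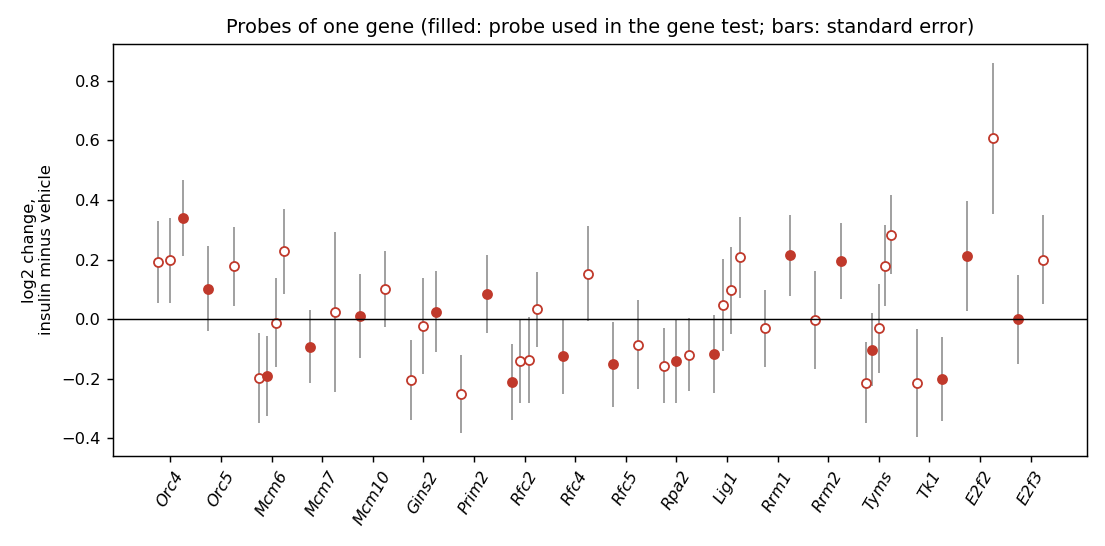
Log2 change, insulin minus vehicle, of every detected probe of the 18 genes with more than 1, sorted within a gene, with standard errors as bars and the probe used in the gene test filled. Probes of 11 genes lie on both sides of 0, and the highest single probe is one of E2f2 at 0.61.

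Genes with and without the motif stood on both sides of 0. The 14 tested genes with an E2F match had a median log2 change of -0.051, with 5 positive and 9 negative. The 23 tested genes whose windows held no match had a median of 0.0044, with 12 positive and 11 negative. The 7 genes without a window in the table had a median of 0.024. Both of the 2 undetected genes, Pola1 and Pole2, held a match.

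Of 35 tested genes among 40 other E2F targets and S phase factors outside the list, 0 passed the threshold. Over all genes 0.464% passed, so 0 of so few genes is near that share. Of the 35 genes 2, or 5.71%, had an unadjusted p under 0.05, beside 11% of all genes. There were 20 positive and 15 negative changes, or 57.1% positive beside 46% of all genes (median 0.012). Cdc25a, the phosphatase that activates cyclin-dependent kinases at the start of S phase, had the largest change of them at 0.62 ± 0.19 (limma adjusted p = 0.215), with 6.12, 6.74 and 5.74 on the insulin arrays and 5.66, 5.42 and 5.66 on the vehicle arrays. Rnaseh2a, a subunit of ribonuclease H2, had a change of -0.33 ± 0.14 (adjusted p = 0.398). Their promoter windows held the E2F core at a share of 30.6%.

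Upstream, 17 of 21 regulators of the retinoblastoma and E2F switch were tested, and 0 passed, again near the 0.464% of all genes called. An unadjusted p under 0.05 was found for 3, or 17.6%, beside 11% of all genes, and the median was 0.047. Ccnd2, cyclin D2, had a change of 0.58 ± 0.21 (limma adjusted p = 0.326), Skp2, which directs the degradation of a cyclin kinase inhibitor, by 0.47 ± 0.17 (adjusted p = 0.334), and E2f4, an E2F that acts with repressors in resting cells, by 0.33 ± 0.12 (adjusted p = 0.341). E2f4 was higher on every insulin array than on any vehicle array, at 7.80, 7.71 and 7.86 against 7.42, 7.46 and 7.52. It was the only 1 of the 17 regulators, or 5.88%, whose groups did not overlap, beside 15.9% of all genes. Over the 16 alternatives the change ran from 0.25 to 0.75 for Ccnd2, 0.18 to 0.65 for Skp2 and 0.25 to 0.36 for E2f4. Of 15 tested mitosis genes, which are transcribed later in the cycle, 0 passed, near the 0.464% of all genes. Of the 15 genes 1, or 6.67%, had an unadjusted p under 0.05, beside 11% of all genes. Of them 12 were negative and 3, or 20%, positive, beside 46% positive of all genes, with a median of -0.078 beside -0.015. Bub1b, a spindle checkpoint kinase, stood at -0.31 ± 0.12 (limma adjusted p = 0.373). Only 1 of the 18 promoter windows of the mitosis genes held the E2F core.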

How the data were processed

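RNA from 3 insulin-treated and 3 vehicle-treated samples was read on Illumina arrays. Groups and replicate numbers came from the sample titles. Whether replicates were separate cultures is not stated, so the p-values reflect the spread of these samples alone, and that may be technical. The deposited non-normalized table held, per the file headers, an intensity on a linear scale for each probe and array and, beside it, a detection p-value. GenomeStudio produced the values, per the submitters' processing notes, which give no version or setting. The authors' deposited processed intensity values equalled a quantile normalization of those signals to within a relative difference of 3.33e-10, and served as an alternative.

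Signals were corrected with limma's neqc (limma 3.58.1, R 4.3.3, offset 16), quantile normalized and put on the log2 scale. The log2 scale stretches differences of dim probes, and the offset narrows them. The deposited values were not on a log2 scale. Probes with detection p under 0.05 on at least 3 of 6 arrays were kept (17482 of 45281). Probes named in the platform annotation for 1 gene were used (34885 of all probes, 18 with several and 10378 with none), and the probe with the highest mean stood for a gene. Levels of different probes were not compared. The contrast was fitted with lmFit and eBayes over all genes, two-sided, with Benjamini-Hochberg adjustment and no replicate term. The number of arrays limits the precision. The procedure was also run on simulated data, with planted changes larger than any of the replication genes in the gene test. That run does not show whether changes of their size would be found.

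The members, lists, motif and tests were chosen with earlier results of these data known. Values per array are given for the gene with the largest change in each of 9 roles, for any with an unadjusted p under 0.05, and for Pcna, Cdc6, Cdt1 and the E2F genes. Values of other genes, and which of the promoters to print, were chosen after the values were seen. Of the other lists, genes past the threshold were named, otherwise the one with the smallest p and any with an unadjusted p under 0.05. Alternatives covered background correction, scaling, the detection filter, the probe rule, the variance model, the replicate block and leaving out each array. Promoter sequences are from RefSeq, GRCm38.p6. The build behind the probes is not stated.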

Additional observations from a re-analysis of the deposited data

How the results depend on the processing

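In all 16 alternatives 0 replication genes were called, with 43 to 46 of them tested (limma, unadjusted p under 0.05 for 1 to 5 of them). Over the whole array 0 to 83 genes were called, so 0 among the replication genes is near that share. The median log2 change of the replication genes stayed between -0.030 and 0.011, within the spread of 0.040 between replicate arrays. The lowest limma adjusted p of any of them ranged from 0.26 to 0.58. Median scaling moved their signs to 17 positive and 27 negative. Over all genes the number called was 29 with normexp at an offset of 50, 22 with no background correction and 22 with the processed values that the authors deposited. It was 83 with a trended, robust variance model and 0 of 19057 with no filter (limma, 1645 at an unadjusted p under 0.05). Without 1 array it ran from 2 to 67, at 11, 10 and 67 without insulin replicates 1, 2 and 3 and 13, 2 and 3 without vehicle replicates 1, 2 and 3. With the replicate block it was 75. Deviations of same-numbered arrays correlated at 0.090, 0.15 and 0.13, and each array correlated best with its own number, which is a hint from the data and not from the design. Orc4, Cdc6, Cdt1, Mcm6, Cdc45, Pola2, Pcna, Rpa1, Lig1, Rrm1 and the 3 E2F genes, the 13 that the naming rule gave, kept their sign in all but 11 of 208 refits. The changed detection filters, the variance model and the replicate block left these 13 changes as in the main fit, so no sign could turn there. The deposited values nearly repeated the fit with no background correction. The 208 refits thus overstate how stable the signs are. E2f3 turned to 0.00017 with no background correction, 0.00018 with the deposited values and 0.099 with the mean of probes, and ran from -0.12 to 0.11 without 1 array. Cdt1 turned to -0.014 with median scaling and ran from -0.037 to 0.098 without 1 array. Lig1 turned to 0.058 with the mean of probes. The causes were not tested. Cdc25a, outside the list, passed in 1 of 16 alternatives (lowest limma adjusted p = 0.0274, highest 0.586).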
